A study of Homo sapiens with 9 samples.

Results

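The secreted vascular growth factors VEGFA, VEGFB and VEGFC, the co-receptors NRP1 and NRP2, and the hormones APLN, STC1 and ANGPTL4 were followed in the human fibrosarcoma line HT1080. Their probe sets were taken from the deposited array values by the gene symbol in the platform's annotation. Of 28 probe sets annotated to these 8 genes, 14 had values and covered 7 genes, out of 9453 genes and 17466 probe sets with values in the whole table. ANGPTL4, with 2 annotated probe sets, had no value on any array and is not analysed further. RNA was measured on 9 Affymetrix arrays in 3 groups of 3. The first group was MTAP+ cells that received MT-DADMe-ImmA, which inhibits MTAP, at 10 µM during the last 48 hours of culture, the next was MTAP+ cells without treatment, and the last was untreated MTAP- cells. MTAP, methylthioadenosine phosphorylase, splits methylthioadenosine, which cells release when they make polyamines, and MT-DADMe-ImmA binds it tightly. All groups came from the HT1080 line, and per the design text each array of a group is a biological replicate. The sources used here give neither how the MTAP+ cells were made nor whether they are 1 clone, and no MTAP- cells with inhibitor were analysed here.

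VEGF proteins are secreted dimers that bind receptor tyrosine kinases on endothelial cells. VEGFA drives the growth of blood vessels, VEGFC that of lymphatic vessels, and VEGFB, which binds the receptor FLT1, has been tied to fatty acid handling in muscle and heart. Neuropilins bind both VEGF and class 3 semaphorins and pass these signals on with VEGF receptors or plexins. Apelin is a peptide ligand of the receptor APLNR in vessels and heart, STC1 is a secreted glycoprotein hormone first known from fish as a regulator of calcium, and ANGPTL4 inhibits lipoprotein lipase. VEGFA, STC1, ANGPTL4 and APLN are known targets of the hypoxia-inducible factors (HIF), which bind the DNA letters ACGTG or GCGTG, and ANGPTL4 is also a target of PPAR factors. Tumour cells, fibrosarcoma cells among them, are known sources of VEGFA.

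RefSeq promoter windows were matched for 5 of the 8 genes, VEGFB, VEGFC, NRP2, APLN and ANGPTL4. Of these, 3 are shown because the genes had different patterns over the groups. VEGFC differed between MTAP+ and MTAP- cells, as did NRP2. NRP2 also differed with the inhibitor at 1 probe set, and APLN differed with the inhibitor. Each window runs from 250 bases before to 50 bases after the gene's start on build GRCh38.p14, written 5′ to 3′ on the gene's own strand. Capitals mark the HIF core, ACGTG or GCGTG, on either strand. VEGFC lies at chr4:176792873-176793172 (minus strand), NRP2 at chr2:205682251-205682550 (plus strand) and APLN at chrX:129654907-129655206 (minus strand).
VEGFC: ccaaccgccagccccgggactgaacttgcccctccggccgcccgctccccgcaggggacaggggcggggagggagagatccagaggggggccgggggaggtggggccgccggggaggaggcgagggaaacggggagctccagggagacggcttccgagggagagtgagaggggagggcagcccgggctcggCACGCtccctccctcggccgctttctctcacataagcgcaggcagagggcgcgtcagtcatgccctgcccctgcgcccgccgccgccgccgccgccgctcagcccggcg
NRP2: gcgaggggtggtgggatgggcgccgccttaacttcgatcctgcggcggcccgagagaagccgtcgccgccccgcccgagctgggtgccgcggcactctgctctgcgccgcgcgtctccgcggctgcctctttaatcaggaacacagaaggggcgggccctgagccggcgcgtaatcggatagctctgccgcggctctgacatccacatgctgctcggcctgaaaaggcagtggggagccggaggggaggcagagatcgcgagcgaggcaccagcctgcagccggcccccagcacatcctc
APLN: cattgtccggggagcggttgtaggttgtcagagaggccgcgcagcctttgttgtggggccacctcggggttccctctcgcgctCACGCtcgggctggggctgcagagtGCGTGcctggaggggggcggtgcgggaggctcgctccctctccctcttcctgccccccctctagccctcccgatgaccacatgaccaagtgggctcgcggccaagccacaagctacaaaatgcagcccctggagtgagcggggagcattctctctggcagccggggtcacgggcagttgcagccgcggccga
The APLN window held 2 cores, which began 167 and 142 bases before the start, and the VEGFC window held 1, which began 59 bases before it. The NRP2 window held 0. The windows of VEGFB and ANGPTL4, not printed, held 1 core each. A core stood in 48.4% of all 35116 promoter windows of this length, so its presence is common, and a match is a description and not a bound site. The GC box GGGCGG, searched on both strands, stood in 45% of all windows and occurred 2 times in VEGFC, 3 times in NRP2 and 1 time in APLN.

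**Figure D1:**
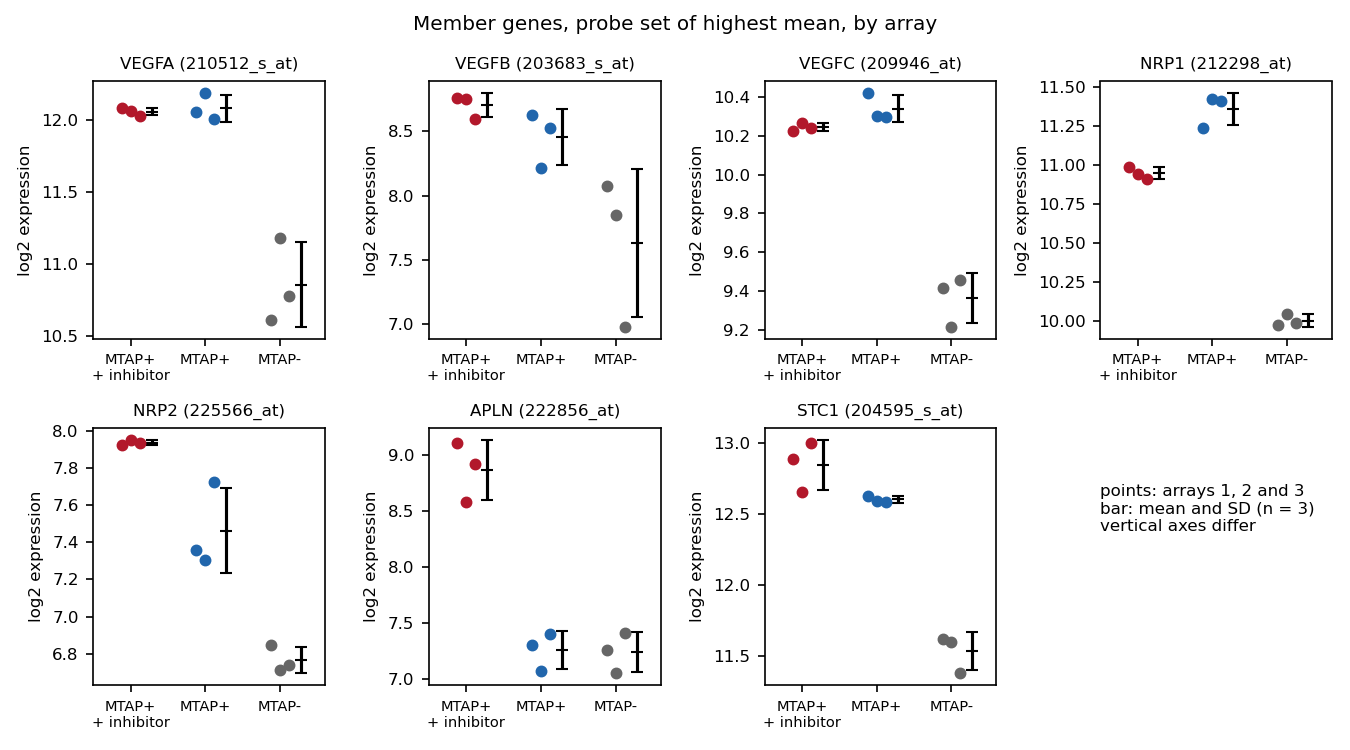
Deposited log2 values of the probe set of highest mean for each of the 7 genes with values, by array (points, arrays 1 to 3 from left to right) with mean and SD (bars, n = 3), in inhibitor-treated MTAP+, MTAP+ and MTAP- cells; the vertical axes differ and do not start at 0. All panels but that of APLN show MTAP- cells lowest, while APLN is highest on the 3 inhibitor-treated arrays.

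Values are log2 intensities made by the authors with RMA, and differences between groups are log2 differences with their standard error (SE) from limma, fitted to all probe sets with values, with Benjamini-Hochberg adjusted p-values and a threshold of 0.05. Levels are compared between groups within a probe set, never between probe sets. Every probe set in the table reached log2 6.64, an intensity of 100, on at least 3 arrays. Where a group mean lay below 6.64, the fold is counted from 6.64 and given as a lower bound. The 2 MTAP probe sets followed the labels, being at least 30.6-fold and at least 31.7-fold higher in MTAP+ than in MTAP- cells, with values of 3.86 to 5.02 on the MTAP- arrays. All 8 mesenchymal markers had values, at log2 9.15 to 14.07 on single arrays. Of 10 endothelial markers TIE1 and ROBO4 had values, whereas PECAM1, CDH5, VWF and KDR had none. The summed intensity of TIE1 and ROBO4 was 3323 to 3550 in inhibitor-treated cells, 2679 to 2974 in MTAP+ cells and 1595 to 2274 in MTAP- cells. This sum ran in the same order as several results below, and its part in them was not tested. TIE1, the brighter, averaged log2 11.53, 11.20 and 10.59 in these groups, while the lowest value of the 2 markers was 8.81, 8.77 and 8.72. The order of the sum is therefore mainly that of TIE1, which is also given below as a gene. Of 6 epithelial markers KRT8 and KRT18 had values, and of 6 blood markers LYZ alone. LYZ had a summed intensity of 49.5 to 52.7 in inhibitor-treated, 109 to 205 in MTAP+ and 28.5 to 31.1 in MTAP- cells. RNA quality differed between arrays. The ACTB control probe sets gave a 5′ value minus 3′ value of -1.64 ± 0.66 in inhibitor-treated, -1.43 ± 0.45 in MTAP+ and -2.50 ± 0.90 in MTAP- cells (log2, SD, n = 3), lowest at -3.52 on MTAP- array 3. For GAPDH it was -0.23 ± 0.13, -0.18 ± 0.16 and -0.61 ± 0.41 in the same groups. Array 3 was the lowest of its group in every group for both controls.

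Across the 14 probe sets, 10 were higher and 0 lower in MTAP+ than in MTAP- cells (limma, Benjamini-Hochberg adjusted), where 14.8% of all 17464 probe sets counted passed, 10.0% as higher and 4.78% as lower. The arrays of the groups did not overlap for 12 of the 14, against 33.7% of all. At an unadjusted p below 0.05 the counts for the 14 were 12 higher and 0 lower. Of all probe sets that passed in this comparison, 67.7% were higher, and 50.1% were after each array was centred on its median. The median difference was 1.03 over the 14 probe sets and 0.04 over all. With inhibitor, 3 were higher and 1 was lower than in MTAP+ cells, where 10.3% of all passed, 4.86% as higher and 5.48% as lower, with medians of 0.25 over the 14 and -0.02 over all. With the replicate number as a block, 2726 of all probe sets passed in this comparison in place of 1805, and 5 of the 14 in place of 4. Without inhibitor-treated array 1, 2 or 3 the counts were 909, 914 and 452 of all, and 2 of the 14 each time. The arrays of the inhibitor-treated and MTAP+ groups did not overlap for 7 of the 14, against 33.2% of all. Between inhibitor-treated and MTAP- cells all 14 were higher, without overlap of arrays, where 30.7% of all passed, 17.3% as higher and 13.3% as lower, and 50.6% did not overlap, with medians of 1.26 over the 14 and 0.03 over all. The 14 probe sets are not independent, since several read the same gene, and 3 of them had MTAP- means below 6.64 and so entered the table through arrays of the other groups; the counts describe and do not test the 8 genes. The 3 comparisons share arrays. Because these are bulk samples, fewer cells expressing a gene and less RNA per cell cannot be told apart.

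**Figure D2:**
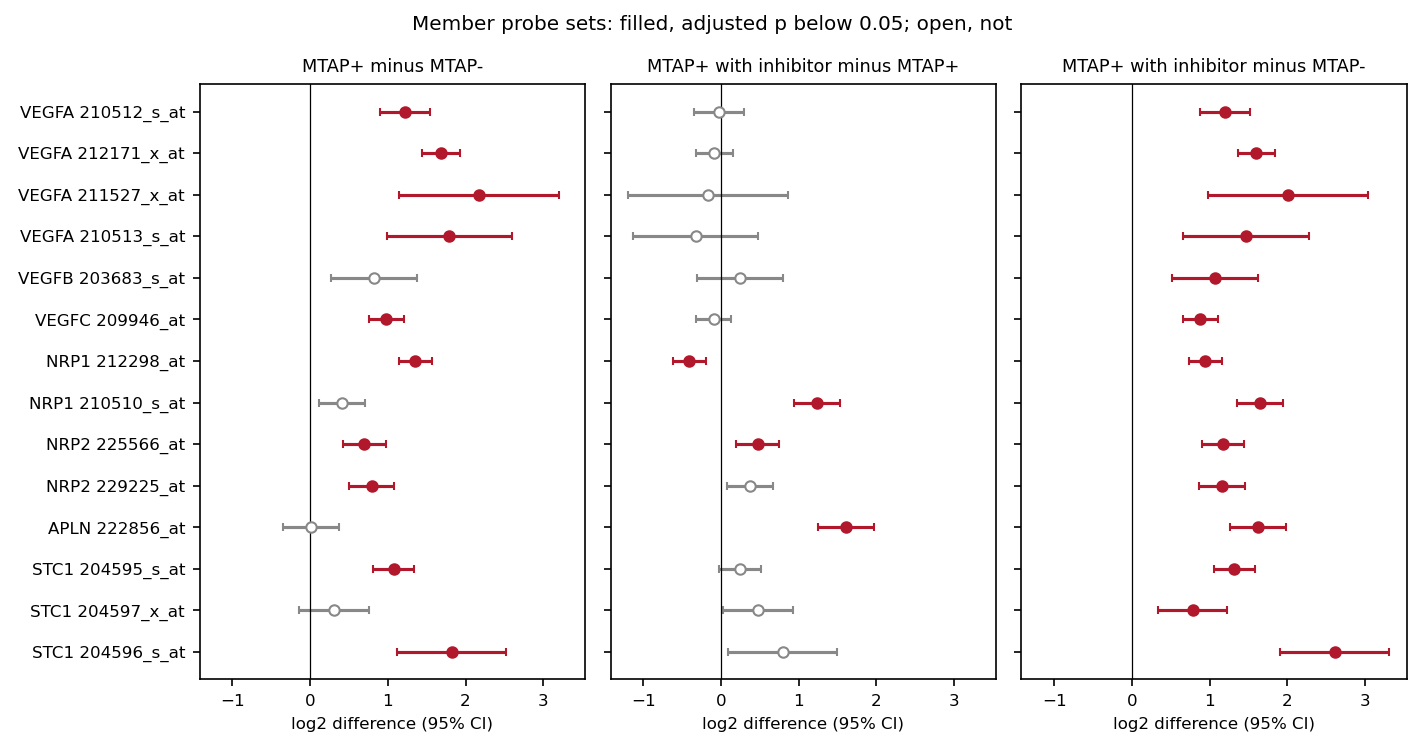
Log2 differences of the 14 probe sets with 95% confidence intervals in the 3 comparisons; filled points had a Benjamini-Hochberg adjusted p below 0.05 over all probe sets. In the left panel 10 points are filled and all of these lie above 0, in the middle panel APLN (1.61) and NRP1 210510_s_at (1.23) lie farthest from 0, and in the right panel all 14 are filled.

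VEGFA, the main vessel growth factor (chr6:43770211-43786487, GRCh38.p14, as for all genes below), was higher in MTAP+ cells, treated or not, than in MTAP- cells. Its brightest probe set, 210512_s_at, read 12.08, 12.06 and 12.03 in inhibitor-treated cells, 12.06, 12.18 and 12.002 in MTAP+ cells, and 10.61, 11.18 and 10.78 in MTAP- cells. The treated and untreated MTAP+ arrays overlapped, and every one of them lay above all MTAP- arrays. VEGFA was thus 2.33-fold higher in MTAP+ than in MTAP- cells (1.22 ± 0.14, log2 ± SE, adjusted p = 8.53e-04) and 2.30-fold higher in inhibitor-treated than in MTAP- cells (1.20 ± 0.14, adjusted p = 4.08e-04). The inhibitor changed it by -0.02 ± 0.14 (adjusted p = 0.938), with a 95% interval from -0.34 to 0.30.

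The other VEGFA probe sets showed the same order of MTAP- below the rest. Probe set 212171_x_at read 9.77, 9.82 and 9.59 in inhibitor-treated, 9.90, 9.85 and 9.68 in MTAP+ and 8.19, 8.06 and 8.13 in MTAP- cells, a 3.21-fold difference between MTAP+ and MTAP- cells (1.68 ± 0.11, adjusted p = 4.17e-05). It was 3.03-fold higher in inhibitor-treated than in MTAP- cells (1.60 ± 0.11, adjusted p = 3.52e-05) and changed by -0.08 ± 0.11 with inhibitor (adjusted p = 0.662). Both of these probe sets may bind several transcripts, as their _s_at and _x_at suffixes mark, and VEGFA is known for many splice forms. The dim probe sets varied more. Probe set 211527_x_at read 7.95, 9.07 and 7.99 in inhibitor-treated cells, 8.41, 9.45 and 7.65 in MTAP+ cells and 6.78, 6.40 and 5.82 in MTAP- cells. It was at least 3.63-fold higher in MTAP+ than in MTAP- cells (adjusted p = 0.0136), a call lost without MTAP- array 3 (adjusted p = 0.0511) and with the ACTB difference as a covariate (0.0683), and at least 3.23-fold higher in inhibitor-treated cells (adjusted p = 0.00982). Probe set 210513_s_at read 7.50, 8.17 and 7.31 in inhibitor-treated, 7.87, 8.81 and 7.28 in MTAP+ and 6.22, 6.45 and 5.91 in MTAP- cells. It was at least 2.54-fold higher in MTAP+ cells (adjusted p = 0.0109) and at least 2.02-fold higher in inhibitor-treated cells (0.0135), and the ACTB covariate ended both calls (0.0848 and 0.0531). Array 2 was the highest of its group in both MTAP+ groups for these dim probe sets. Neither changed with inhibitor past the test, at -0.17 ± 0.46 and -0.33 ± 0.36 (adjusted p = 0.852 and 0.611).

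VEGFB, the FLT1 ligand (chr11:64234584-64239264), had 1 probe set, 203683_s_at, which read 8.76, 8.75 and 8.60 in inhibitor-treated cells, 8.63, 8.21 and 8.53 in MTAP+ cells and 8.07, 7.85 and 6.98 in MTAP- cells. The MTAP+ arrays lay above the MTAP- arrays, but the difference of 0.82 ± 0.25 did not pass (adjusted p = 0.0524, 95% interval 0.27 to 1.38), and it passed with the replicate number as a block (adjusted p = 0.0329). The low MTAP- value came from array 3, the array of lowest ACTB 5′ minus 3′ difference. Without that array the difference was 0.50 (adjusted p = 0.0800), and with the ACTB covariate it was 0.46 (0.355). VEGFB was 2.10-fold higher in inhibitor-treated than in MTAP- cells (1.07 ± 0.25, adjusted p = 0.0102), with overlap of inhibitor-treated and MTAP+ arrays and a change of 0.25 ± 0.25 between them (adjusted p = 0.571).

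VEGFC, the lymphatic growth factor (chr4:176683538-176792922), read 10.23, 10.27 and 10.24 in inhibitor-treated cells, 10.42, 10.30 and 10.30 in MTAP+ cells and 9.42, 9.21 and 9.46 in MTAP- cells (209946_at). It was 1.97-fold higher in MTAP+ than in MTAP- cells (0.98 ± 0.10, adjusted p = 5.23e-04) and 1.84-fold higher in inhibitor-treated than in MTAP- cells (0.88 ± 0.10, adjusted p = 3.32e-04). The inhibitor-treated arrays all lay just below the MTAP+ arrays, with a difference of -0.10 ± 0.10 that did not pass (adjusted p = 0.585). Over the 9 arrays, after each gene was centred on its own mean, the genes nearest to VEGFA were SMIM19 and ARHGEF3 and those nearest to VEGFC were NMRK1 and SIAE. Their root mean square distances were 0.137 and 0.148 from VEGFA, and 0.0876 and 0.0896 from VEGFC (log2, out of 9446 genes searched). For VEGFB they were NUCB1 and LY6E, at 0.0884 and 0.113.

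NRP1, a co-receptor for VEGF and semaphorins (chr10:33177493-33334667), gave opposite answers to the inhibitor at its 2 probe sets with values. Probe set 212298_at read 10.99, 10.94 and 10.91 in inhibitor-treated cells, 11.24, 11.42 and 11.41 in MTAP+ cells and 9.97, 10.05 and 9.99 in MTAP- cells. The 3 groups did not overlap, with MTAP+ highest and MTAP- lowest. NRP1 at this probe set was 2.56-fold higher in MTAP+ than in MTAP- cells (1.35 ± 0.09, adjusted p = 7.39e-05) and 1.92-fold higher in inhibitor-treated than in MTAP- cells (0.94 ± 0.09, adjusted p = 1.79e-04). With inhibitor it fell by 0.41 ± 0.09 relative to MTAP+ cells (adjusted p = 0.0256). That fall lost its call in 6 of 19 alternatives, among them without any of the inhibitor-treated arrays 1, 2 and 3 (adjusted p = 0.0678, 0.0780 and 0.109) and without MTAP+ array 2 or 3 (0.0569 and 0.0590).

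Probe set 210510_s_at of NRP1 read 10.72, 10.54 and 10.80 in inhibitor-treated cells, 9.41, 9.25 and 9.69 in MTAP+ cells and 8.96, 9.04 and 9.11 in MTAP- cells. Here the inhibitor-treated arrays were highest, and no groups overlapped. It rose 2.35-fold with inhibitor over MTAP+ cells (1.23 ± 0.13, adjusted p = 0.00211, at most 0.0166 in any of 17 alternatives) and was 3.14-fold higher in inhibitor-treated than in MTAP- cells (1.65 ± 0.13, adjusted p = 7.26e-05). Between MTAP+ and MTAP- cells the difference of 0.41 ± 0.13 did not pass (adjusted p = 0.0621), and passed with the replicate number as a block (0.0287). Within each array, the value of 210510_s_at minus that of 212298_at changed by 1.64 between inhibitor-treated and MTAP+ cells and by -0.94 between MTAP+ and MTAP- cells (log2). For both, the arrays of the groups did not overlap, and the exact two-sided permutation test gave p = 0.1, the smallest that 3 against 3 arrays allow. On these arrays the probe sets changed unequally, but with a smallest possible p of 0.1 the test cannot decide it. An unequal change does not say that either stayed constant. Which parts of NRP1 transcripts each of them reads was not analysed here. The genes nearest in pattern to 212298_at over the 9 arrays were LURAP1L and AHR, both at a root mean square distance of 0.142 (log2).

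**Figure D3:**
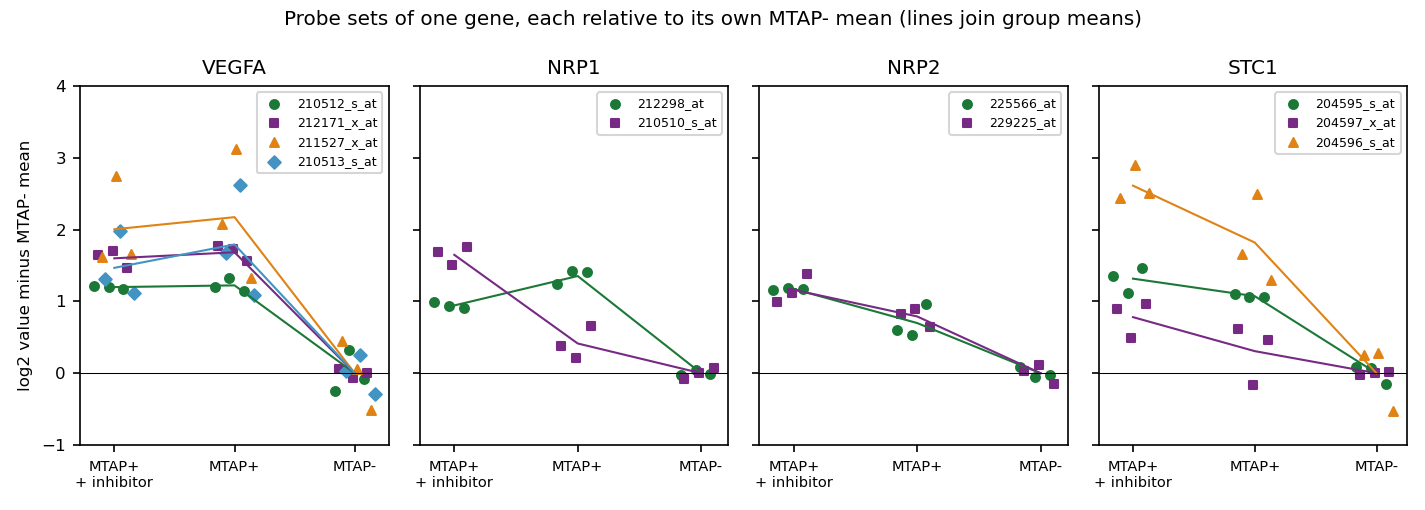
Values of every probe set of VEGFA, NRP1, NRP2 and STC1 by array (points), each relative to its own mean in MTAP- cells, with lines through the group means of inhibitor-treated, MTAP+ and MTAP- cells (log2). The lines of NRP1 cross between the inhibitor-treated and MTAP+ groups, with differences of -0.41 for 212298_at and 1.23 for 210510_s_at between inhibitor-treated and MTAP+ cells, while both lines of NRP2 run in the same order.

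NRP2, the neuropilin known for binding VEGFC (chr2:205682501-205798131), was higher in both MTAP+ groups than in MTAP- cells at its 2 probe sets with values, and a smaller step with inhibitor passed at 1 of them. Probe set 225566_at read 7.93, 7.95 and 7.93 in inhibitor-treated cells, 7.36, 7.30 and 7.73 in MTAP+ cells and 6.85, 6.71 and 6.74 in MTAP- cells, with no overlap between groups. It was 1.62-fold higher in MTAP+ than in MTAP- cells (0.70 ± 0.12, adjusted p = 0.00619), 1.39-fold higher in inhibitor-treated than in MTAP+ cells (0.47 ± 0.12, adjusted p = 0.0392) and 2.25-fold higher in inhibitor-treated than in MTAP- cells (1.17 ± 0.12, adjusted p = 2.24e-04). The step with inhibitor lost its call in 11 of 17 alternatives, with adjusted p from 0.0111 to 0.128. It was lost without each MTAP- array (0.0519 to 0.0582), without MTAP+ array 1 or 2 (0.117 and 0.0901), and without each inhibitor-treated array (0.0996 to 0.128). Probe set 229225_at read 6.90, 7.01 and 7.28 in inhibitor-treated cells, 6.73, 6.80 and 6.55 in MTAP+ cells and 5.94, 6.02 and 5.75 in MTAP- cells. It was at least 1.04-fold higher in MTAP+ than in MTAP- cells (array values 0.79 ± 0.13, adjusted p = 0.00469) and at least 1.34-fold higher in inhibitor-treated than in MTAP- cells (adjusted p = 3.18e-04). With inhibitor it differed by 0.37 ± 0.13 from MTAP+ cells and did not pass (adjusted p = 0.101). The genes nearest to NRP2 in pattern were EHD3 and ZNF581, at root mean square distances of 0.0665 and 0.0719 (log2, 9 arrays).

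APLN, the apelin precursor (chrX:129645259-129654956), differed with the inhibitor and not detectably between MTAP+ and MTAP- cells. Since no MTAP- cells with inhibitor were analysed, whether the difference with inhibitor needs MTAP cannot be told. Its probe set 222856_at read 9.11, 8.58 and 8.92 in inhibitor-treated cells, 7.31, 7.07 and 7.40 in MTAP+ cells and 7.27, 7.05 and 7.41 in MTAP- cells. Every inhibitor-treated array lay above all other arrays, and the MTAP+ and MTAP- arrays overlapped throughout. APLN rose 3.05-fold with inhibitor over MTAP+ cells (1.61 ± 0.16, adjusted p = 0.00187) and was 3.08-fold higher in inhibitor-treated than in MTAP- cells (1.62 ± 0.16, adjusted p = 1.75e-04). Both calls held in all 19 alternatives, with adjusted p up to 0.0162 and 0.00145. Between MTAP+ and MTAP- cells the difference was 0.02 ± 0.16 (adjusted p = 0.961), with a 95% interval from -0.34 to 0.37, and its sign turned when arrays were centred on their medians (-0.061) or quantile normalised again (-0.086). The genes nearest to APLN were BEX2 and LINC02806, at root mean square distances of 0.204 and 0.237 (log2, 9 arrays), farther than the nearest genes of the other 6 genes. The group differences of BEX2 were 1.52 with inhibitor over MTAP+ cells and 0.02 between MTAP+ and MTAP- cells (log2).

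STC1, the stanniocalcin hormone (chr8:23841929-23854806), was higher in MTAP+ than in MTAP- cells at 2 of its 3 probe sets. All 3 were higher in inhibitor-treated than in MTAP- cells. The brightest, 204595_s_at, read 12.89, 12.66 and 13.00 in inhibitor-treated cells, 12.63, 12.59 and 12.59 in MTAP+ cells and 11.62, 11.60 and 11.38 in MTAP- cells. It was 2.10-fold higher in MTAP+ than in MTAP- cells (1.07 ± 0.12, adjusted p = 6.75e-04) and 2.49-fold higher in inhibitor-treated than in MTAP- cells (1.32 ± 0.12, adjusted p = 1.17e-04). All inhibitor-treated arrays lay above the MTAP+ arrays, yet the difference of 0.24 ± 0.12 did not pass (adjusted p = 0.218, 95% interval -0.02 to 0.51).

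Probe set 204596_s_at of STC1 read 10.40, 10.86 and 10.48 in inhibitor-treated cells, 9.63, 10.47 and 9.26 in MTAP+ cells and 8.22, 8.24 and 7.44 in MTAP- cells. It was 3.53-fold higher in MTAP+ than in MTAP- cells (1.82 ± 0.31, adjusted p = 0.00573) and 6.11-fold higher in inhibitor-treated than in MTAP- cells (2.61 ± 0.31, adjusted p = 4.31e-04), the largest difference among the 14 probe sets in that comparison. The low MTAP- value was again that of array 3. With inhibitor it differed by 0.79 ± 0.31 from MTAP+ cells (adjusted p = 0.140), and passed with the replicate number as a block (0.0307) and without MTAP+ array 2 (0.0364), the highest of its group. Probe set 204597_x_at read 11.30, 10.89 and 11.36 in inhibitor-treated cells, 11.02, 10.24 and 10.87 in MTAP+ cells and 10.38, 10.41 and 10.42 in MTAP- cells. Its MTAP+ and MTAP- arrays overlapped, since MTAP+ array 2 was the lowest of all, and the difference of 0.31 ± 0.20 did not pass (adjusted p = 0.323) but did without that array (0.54, adjusted p = 0.0407). It was 1.72-fold higher in inhibitor-treated than in MTAP- cells (0.78 ± 0.20, adjusted p = 0.0162), a call lost without inhibitor-treated array 1 or 3 (0.0558 and 0.0634). Within arrays, 204597_x_at minus 204595_s_at changed by -0.77 between MTAP+ and MTAP- cells without overlap (exact two-sided permutation p = 0.1, the smallest possible). The difference of 204596_s_at minus 204595_s_at changed the other way, by 0.75 between MTAP+ and MTAP- cells and by 1.29 between inhibitor-treated and MTAP- cells, both without overlap and with the same p. The genes nearest to STC1 were SPRY2 and TMEM158, at root mean square distances of 0.0917 and 0.120 (log2, 9 arrays).

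Of the receptors and other ligands of the VEGF family, FLT1 and PGF had values out of 5 listed genes, and neither differed past the test in any comparison (limma, with 0 at an unadjusted p below 0.05). PGF, placental growth factor, differed by -0.03 ± 0.17 between MTAP+ and MTAP- cells, by 0.32 ± 0.17 with inhibitor and by 0.29 ± 0.17 between inhibitor-treated and MTAP- cells (adjusted p = 0.216). The plexins and semaphorins that work with neuropilins had 9 of 15 genes with values. Of these, 4 (PLXNA4, PLXNB1, PLXNB2 and SEMA3A) were higher and 0 lower in MTAP+ than in MTAP- cells (6 and 0 at an unadjusted p below 0.05), against 9.83% and 5.31% of all genes. With inhibitor 1 was higher and 0 lower than in MTAP+ cells, against 4.63% and 5.95% of all genes. Between inhibitor-treated and MTAP- cells 5 were higher and 1 lower, against 17.3% and 14.9% of all genes. PLXNA4, PLXNB1 and SEMA3A had MTAP- means below 6.64 and so entered the table mainly through arrays of the other groups, which bears on the direction of these counts. With the ACTB covariate 1 gene of the list passed between MTAP+ and MTAP- cells. The gene higher with inhibitor was PLXND1, a plexin of vessel cells, named after its value was seen (0.68 ± 0.18, adjusted p = 0.0452); the call was lost without each array in turn except MTAP+ array 3. The gene lower in inhibitor-treated than in MTAP- cells, also named afterwards, was SEMA3C, a secreted semaphorin (-0.93 ± 0.20, adjusted p = 0.00670).

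PLXNA4, a plexin of the semaphorin receptor complex, averaged 7.71 in inhibitor-treated, 7.77 in MTAP+ and 6.27 in MTAP- cells, at least 2.19-fold higher in MTAP+ than in MTAP- cells (adjusted p = 8.11e-04). SEMA3A, a neuropilin ligand, averaged 7.74, 7.93 and 6.61 in the same groups and was at least 2.43-fold higher in MTAP+ than in MTAP- cells (adjusted p = 0.0355), a call lost in 6 of 17 alternatives, among them without each MTAP- array (0.0735 to 0.0984) and without inhibitor-treated array 2 (0.0513). PLXNB1 averaged 7.16, 7.10 and 6.03 and was at least 1.37-fold higher in MTAP+ cells (adjusted p = 0.0103), a call lost with the ACTB covariate (0.0972). PLXNA1 differed by 0.75 ± 0.23 between MTAP+ and MTAP- cells and did not pass (adjusted p = 0.0530, or 0.0232 with the replicate block). The count of 4 in this list was 2 without MTAP- array 1 or 3 or inhibitor-treated array 2, and up to 6 without another array.

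Genes of the HIF pathway divided into regulators and targets. Of 7 HIF subunits and regulators with values, 0 passed in any comparison (limma). At an unadjusted p below 0.05, 1 was higher in MTAP+ than in MTAP- cells, 1 was lower with inhibitor, and 2 were higher and 1 lower between inhibitor-treated and MTAP- cells. Without MTAP+ array 2, 1 passed between MTAP+ and MTAP- cells, and without single MTAP+ arrays up to 2 passed between inhibitor-treated and MTAP- cells. HIF1A, the oxygen-regulated subunit, differed by 0.02 ± 0.15 between MTAP+ and MTAP- cells and by 0.21 ± 0.15 with inhibitor (log2 ± SE, mRNA only). The sign of its difference between MTAP+ and MTAP- cells turned after median centring (-0.060). With the replicate block, EGLN1, a HIF prolyl hydroxylase named after its value was seen, passed as lower with inhibitor (-0.31, adjusted p = 0.0477). Of 14 other known HIF target genes with values out of 16 listed, 9 were higher and 0 lower in MTAP+ than in MTAP- cells, with a median of 0.60. Over all genes 9.83% were higher and 5.31% lower in that comparison. The count was 9 without each array in turn and 4 with the ACTB covariate. With inhibitor 4 (DDIT4, NDRG1, LOX and P4HA1) were higher and 0 lower than in MTAP+ cells, against 4.63% and 5.95% of all genes (median 0.26). That count was 3 to 5 without single arrays, lowest without inhibitor-treated array 3. Between inhibitor-treated and MTAP- cells 10 were higher and 0 lower, against 17.3% and 14.9% of all genes (median 0.64). At an unadjusted p below 0.05, 10 targets were higher and 1 lower in MTAP+ than in MTAP- cells. With inhibitor these counts were 6 and 0, and between inhibitor-treated and MTAP- cells 12 and 2. The 2 lower targets were SLC2A1 (-0.32 ± 0.12, adjusted p = 0.0600) and PFKFB3 (-0.27 ± 0.11, adjusted p = 0.0857).

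DDIT4, an inhibitor of mTOR signalling, was higher by 1.39 ± 0.13 in MTAP+ than in MTAP- cells (adjusted p = 4.17e-04), by 0.94 ± 0.13 with inhibitor (0.00423) and by 2.32 ± 0.13 in inhibitor-treated than in MTAP- cells (2.13e-05). NDRG1, a stress-induced gene, was higher by 0.9995 ± 0.12, 0.80 ± 0.12 and 1.80 ± 0.12 in the same comparisons (adjusted p = 9.76e-04, 0.00526 and 3.52e-05). MXI1, a MYC antagonist, was higher by 0.87 ± 0.15 in MTAP+ than in MTAP- cells (adjusted p = 0.00588, or 0.0538 with the ACTB covariate) and differed by 0.52 ± 0.15 with inhibitor (0.0564, or 0.0143 with the replicate block). BNIP3, a mitophagy receptor and the brightest that passed nowhere, differed by 0.31 ± 0.10 between MTAP+ and MTAP- cells (adjusted p = 0.0646). None of the target counts tells whether HIF protein was active, which was not measured.

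**Figure D4:**
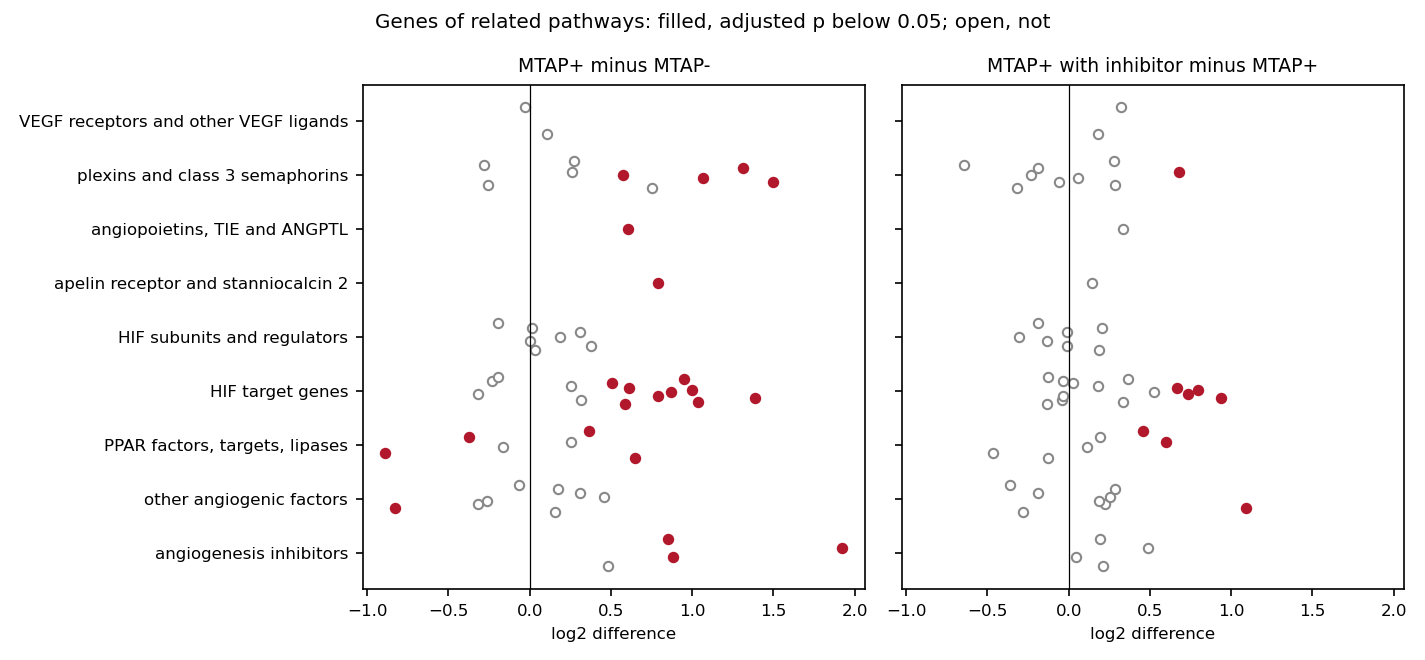
Log2 differences of the 52 listed genes with values in 9 related lists, for MTAP+ minus MTAP- cells (left) and inhibitor-treated minus untreated MTAP+ cells (right); each point is the gene's probe set of highest mean, filled where the Benjamini-Hochberg adjusted p was below 0.05. HIF target genes hold 9 filled points to the right of 0 in the left panel and 4 in the right panel, while HIF subunits and regulators hold 0.

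Of the angiopoietin family, TIE1 alone had values out of 10 genes. TIE1, an endothelial receptor, was higher by 0.61 ± 0.16 in MTAP+ than in MTAP- cells (adjusted p = 0.0333), a call lost in 8 of 18 alternatives that include leaving out each inhibitor-treated array and MTAP+ array 1 or 3 (0.0501 to 0.0948), and by 0.94 ± 0.16 in inhibitor-treated than in MTAP- cells (0.00231). The apelin receptor APLNR had no value. STC2, the relative of STC1, was higher by 0.79 ± 0.14 in MTAP+ than in MTAP- cells (adjusted p = 0.00648) and by 0.93 ± 0.14 in inhibitor-treated than in MTAP- cells (0.00130), and differed by 0.14 ± 0.14 with inhibitor (0.568).

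PPAR factors, their targets and lipases had 6 of 12 genes with values. In MTAP+ against MTAP- cells 2 were higher and 2 (CPT1A and PPARD) lower, where 9.83% and 5.31% of all genes were. That count of 4 was 1 to 3 without single arrays. With inhibitor 2 were higher and 0 lower than in MTAP+ cells, against 4.63% and 5.95% of all genes. Between inhibitor-treated and MTAP- cells 2 were higher and 1 lower, against 17.3% and 14.9%. PPARA and PPARG had MTAP- means of 6.62 and 6.45, below 6.64, and CPT1A an inhibitor-treated mean below it, which bears on the direction of these counts. CPT1A, which moves fatty acids into mitochondria, averaged 6.27 in inhibitor-treated, 6.74 in MTAP+ and 7.63 in MTAP- cells. It differed by -0.89 ± 0.16 between MTAP+ and MTAP- cells (adjusted p = 0.00658, or 0.0622 with the ACTB covariate) and at least 1.98-fold lower in inhibitor-treated than in MTAP- cells (3.85e-04). The factors PPARA and PPARG rose by 0.60 ± 0.14 and 0.46 ± 0.10 with inhibitor over MTAP+ cells (adjusted p = 0.0274 and 0.0213), calls lost in 6 of 17 and 5 of 16 alternatives. Both calls were lost without each inhibitor-treated array and without MTAP+ array 1 or 2 (adjusted p = 0.0636 to 0.0908 for PPARA and 0.0508 to 0.0775 for PPARG). PPARG was also at least 1.13-fold higher in MTAP+ than in MTAP- cells (adjusted p = 0.0390), a call lost in 13 of 16 alternatives. LMF1, needed for lipase maturation, differed by -0.16 ± 0.19 in that comparison (0.592).

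Among other angiogenic factors 8 of 11 genes had values. Here 0 were higher and 1 lower in MTAP+ than in MTAP- cells (1 and 2 at an unadjusted p below 0.05), 1 was higher with inhibitor, and 2 were higher in inhibitor-treated than in MTAP- cells. EDN1, the vasoconstrictor endothelin 1, averaged 6.99 in inhibitor-treated, 5.90 in MTAP+ and 6.72 in MTAP- cells. It was at least 1.06-fold lower in MTAP+ than in MTAP- cells (adjusted p = 0.0229), a call lost in 7 of 17 alternatives that include leaving out MTAP- array 2 or 3 and MTAP+ array 1 or 2 (0.0516 to 0.0797), and at least 1.27-fold higher with inhibitor than in MTAP+ cells (0.0107), lost without inhibitor-treated array 3 (0.0527). JAG1, a Notch ligand, and PDGFC, a platelet-derived growth factor, were higher in inhibitor-treated than in MTAP- cells by 0.71 ± 0.14 and 0.46 ± 0.15 (adjusted p = 0.00537 and 0.0424), with the PDGFC call lost in 8 of 19 alternatives that include leaving out each MTAP- array, MTAP+ array 1 and inhibitor-treated array 1 or 3 (0.0523 to 0.130). CXCL8, an angiogenic chemokine, differed by 0.16 ± 0.15 between MTAP+ and MTAP- cells (0.517). Of 7 angiogenesis inhibitors 4 had values, and 3 of these were higher and 0 lower in MTAP+ than in MTAP- cells (4 and 0 at an unadjusted p below 0.05). The matrix proteins THBS2 and THBS1 were higher by 1.92 ± 0.16 and 0.88 ± 0.19 and the protease inhibitor TIMP3 by 0.85 ± 0.14 (adjusted p = 2.67e-04, 0.0136 and 0.00505), and the ACTB covariate ended the call of THBS1 (0.0530). With inhibitor 0 of the 4 passed (1 higher at an unadjusted p below 0.05, and 1 passed without MTAP+ array 3), and all 4 were higher in inhibitor-treated than in MTAP- cells. COL18A1, among these 4, was at least 1.35-fold higher there. Its MTAP- mean was 6.38, below 6.64, so it entered the table mainly through arrays of the other groups, which bears on the direction of this count. Over all 52 listed genes, 20 were higher and 3 lower in MTAP+ than in MTAP- cells, where 9.83% of all 9452 genes were higher and 5.31% lower, each gene by its probe set of highest mean. The ACTB covariate left 8 of those 23 calls. With inhibitor 8 were higher and 0 lower than in MTAP+ cells, where 4.63% of all genes were higher and 5.95% lower. Between inhibitor-treated and MTAP- cells 25 were higher and 2 lower, where 17.3% of all genes were higher and 14.9% lower. Because the lists were chosen with earlier results of these data known, these counts and those per list describe and do not test the listed genes.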

How the data were processed

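The authors' deposited values are log2 intensities made with RMA, per the submitters' processing notes, which give no version. Of 54675 probe sets listed, 17474 had values, 8 of them controls, and every probe set with values reached log2 6.64 on at least 3 arrays; array medians were 8.24 to 8.38. Cell culture, RNA extraction and biotin labelling followed the labels' protocols. Gene names came from the platform's annotation (15485 probe sets with 1 symbol, 841 with several, 1140 with none), and no gene was named from a probe set with several.

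In R 4.3.3, limma 3.58.1 (lmFit, eBayes) was fitted to the 17466 non-control probe sets with values over all 9 arrays in 3 groups, since the genes are followed as probe sets, with Benjamini-Hochberg adjustment within each of 3 comparisons and the 2 MTAP probe sets left out of counts. The fit was tested on simulated data. P-values measure only the spread between these arrays, and 3 arrays a group limit the precision (median SE 0.140). The members and lists were chosen with earlier results of these data known.

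Named beside the members are, per list, up to 3 genes of largest change past the test in any comparison and the 1 of highest mean that passed in none, on the probe set of highest mean, and for each member the 2 genes of smallest root mean square distance over centred array values. Genes outside that rule are named as chosen after their values were seen, or to spell out a count.

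Pairing was checked by correlating deviations from the group means between same-numbered arrays. The correlations were 0.70, 0.59 and 0.32 for inhibitor-treated and MTAP+ arrays and 0.28, 0.22 and 0.25 for MTAP+ and MTAP- arrays. Same-numbered arrays were thus related there. The correlations were 0.20, 0.0078 and -0.0057 for inhibitor-treated and MTAP- arrays, which were not taken as pairs. The main fit and the permutation tests left the pairing out, so their p-values and SEs are unpaired. Only the alternative with the replicate block used it.

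Alternatives were median centring, renewed quantile normalization, a filter at the 40th percentile, the brightest probe set per gene above that same filter, removal of probe sets that can bind several transcripts, trend and robust variance, array weights, only the 2 groups compared, the replicate block, the ACTB 5′ minus 3′ difference as a covariate, and leaving out each array.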

Additional observations from a re-analysis of the deposited data

How the results depend on the processing

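Over the 14 probe sets and their alternatives, 227 of 246 values kept direction and side of the threshold for MTAP+ against MTAP- cells, 216 of 246 for inhibitor-treated against MTAP+ cells and 243 of 246 for inhibitor-treated against MTAP- cells. The causes of the changes below were not tested. Settings with fewer probe sets gave fewer calls over all, whereas settings with fewer arrays gave fewer in some cases and more in others. With the brightest probe set per gene above the 40th percentile (7011 genes), 1336, 1042 and 2613 were called over all for the 3 comparisons in that order. Among the members 5, 2 and 6 were called. That filter removed NRP2 225566_at, whose highest value was 7.954 against a cut-off of 7.956. In the main fit the leading probe sets of the 7 genes gave 5 higher, then 2 higher and 1 lower, then 7 higher. Without the probe sets of the suffixes _s_at, _x_at and _a_at the counts over all were 1448, 1191 and 3047, with 4 and 5 members for the comparisons with MTAP- cells. The only member probe sets left there were VEGFC 209946_at, NRP1 212298_at, APLN 222856_at and NRP2 225566_at and 229225_at. VEGFA, VEGFB and STC1 were thus not tested in that setting. With only the 2 groups fitted 1383 were called between MTAP+ and MTAP- cells, and 2 members with inhibitor over MTAP+ cells. The ACTB covariate left 849 over all between MTAP+ and MTAP- cells, and 9 members in place of 10. It left 4 members with inhibitor over MTAP+ cells, as before, and 13 in place of 14 between inhibitor-treated and MTAP- cells.

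The replicate block gave 3777, 2726 and 6498 over all and 12, 5 and 14 members. It added calls for VEGFB, NRP1 210510_s_at, PLXNA1 and COL18A1 (adjusted p = 0.0409) between MTAP+ and MTAP- cells, and for STC1 204596_s_at, MXI1 and EGLN1 with inhibitor; for the unpaired comparison of inhibitor-treated with MTAP- cells it gave 0.0204 for P4HA2, 0.0364 for ACADVL, 0.0477 for ARNT2 and 0.0495 for PGF.

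Leaving out single arrays gave 1456 to 2807, 452 to 1836 and 3560 to 6030 over all and 9 to 13, 2 to 3 and 13 to 14 members. The low counts were 1456 without MTAP- array 3 and 1628 without MTAP- array 2; 895 without MTAP+ array 1 and 909, 914 and 452 without inhibitor-treated arrays 1, 2 and 3; and 3560 without inhibitor-treated array 3.

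No difference whose sign turned under an alternative had passed the test. Between MTAP+ and MTAP- cells the sign turned for APLN (-0.061 centred, -0.086 quantile normalised again, -0.080 to 0.11 without single arrays), HIF1A (-0.060 centred, -0.0073 with ACTB, -0.064 to 0.16 without single arrays), PGF (0.077 with array weights, 0.20 with ACTB, -0.17 to 0.095 without single arrays) and LMF1 (-0.28 to 0.022 without single arrays). With inhibitor over MTAP+ cells, array weights gave 0.017 for VEGFA 210512_s_at, 0.19 for VEGFA 211527_x_at, -0.14 for THBS1, 3.07e-04 for BNIP3, -0.0036 for STC2, 0.087 for SEMA3A and -0.029 for PLXNB1, and ACTB gave 0.0098 for VEGFA 211527_x_at. Without single arrays the ranges there were -0.063 to 0.028 for VEGFA 210512_s_at, -0.68 to 0.087 for 210513_s_at, -0.59 to 0.30 for 211527_x_at, -0.019 to 0.22 for LMF1, -0.16 to 0.18 for THBS1, -0.47 to 0.26 for SEMA3A, -0.057 to 0.13 for PLXNB1 and -0.17 to 0.12 for PLXNA4. Between inhibitor-treated and MTAP- cells LMF1 ranged from -0.17 to 0.13.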
